A study of Homo sapiens with 6 samples.

Results

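The KYSE-150 regions shared with another line were the merged ATAC-seq regions in which a KYSE-150 library and at least 1 library of HET-1A or KYSE-30 had a called peak. Peaks of the 6 lists were merged on hg19 wherever they shared 1 bp, which gave 23972 regions. Of these, 741 held a KYSE-150 peak, and 359 of the 741 (48.4%, Wilson 95% interval 44.9 to 52.0) were shared. The members were chosen by the called peaks themselves, so their number and their fold enrichments are descriptions and carry no test.

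The study profiled open chromatin in untreated cultures of HET-1A, a non-cancerous esophageal epithelial line, and of KYSE-30 and KYSE-150, lines of esophageal squamous cell carcinoma (ESCC), with 2 biological replicate libraries per line. HET-1A was grown in BEBM with additives and the carcinoma lines in RPMI/F12 with serum, so line and medium cannot be told apart. Each library came from cultured cells of an established line. The libraries are named by line and by the number in their labels: HET-1A 1 and HET-1A 2, KYSE-30 4 and KYSE-30 6, KYSE-150 7 and KYSE-150 8.

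ATAC-seq uses the Tn5 transposase to cut and tag DNA that is not wrapped in nucleosomes. Promoters of housekeeping genes, which are GC-rich and bound by general factors such as SP1 and NF-Y, are open in nearly every cell type, whereas enhancers differ between cell types and in squamous epithelium often carry the core motif of AP-1, the dimer of FOS and JUN proteins. The ribosomal RNA genes lie in long tandem arrays that hg19 does not place on its chromosomes. Sequence related to them is found on an unplaced contig of the assembly and in scattered copies and pseudogenes on the chromosomes.

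The libraries differed widely in the length of their lists, from 168 to 15979 peaks. HET-1A 2 with 15979 peaks and KYSE-30 6 with 11671 peaks were the longest, and KYSE-150 libraries 7 and 8 held 547 and 259. Of 8 epithelial marker genes, 4 had a promoter peak in HET-1A 2 and 2 in KYSE-30 6, while 0 of 8 had one in either KYSE-150 library or in a shared region. None of the 4 leukocyte markers had a promoter peak in any library, and of the 4 fibroblast markers COL3A1 had one in KYSE-30 6. The KYSE-150 label was therefore not checked by its markers.

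Sequences of 2 kinds recurred among the shared regions and are shown first because the later results turn on them. The first kind held stretches that also occur on the contig with ribosomal RNA gene sequence. In the following windows around the summit of the strongest peak, given on the plus strand of hg19, capitals mark the bases of 32-mers that are also present on that contig. Both windows belong to regions with a peak in all 6 libraries, and were picked for the largest share of such 32-mers among them.
CDC27P1 region, chr2:133025720-133025919: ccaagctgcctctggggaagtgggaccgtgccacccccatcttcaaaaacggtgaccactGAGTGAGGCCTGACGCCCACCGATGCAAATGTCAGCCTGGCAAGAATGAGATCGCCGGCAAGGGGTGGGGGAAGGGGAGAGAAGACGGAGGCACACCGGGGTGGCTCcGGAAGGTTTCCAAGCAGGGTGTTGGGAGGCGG
PARN first intron, chr16:14580835-14581034: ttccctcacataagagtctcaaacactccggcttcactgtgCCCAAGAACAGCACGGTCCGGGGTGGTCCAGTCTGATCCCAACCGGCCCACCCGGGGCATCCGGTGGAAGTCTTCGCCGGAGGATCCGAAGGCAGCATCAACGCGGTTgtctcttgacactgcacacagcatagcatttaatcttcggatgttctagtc
Capitals covered 69.5% of the CDC27P1 window and 54.0% of the PARN window.

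The second kind was single-copy promoter sequence. The next windows belong to promoters with a peak in 1 KYSE-150 library, taken from the gene lists below. They were picked for a high number of the marked motifs, so they do not show a typical member. Over all shared promoter regions, 36.7% held CCAAT and 55.5% held GGGCGG around the summit. Bases that lie in annotated exons were left out. Capitals mark CCAAT, the box bound by NF-Y, GGGCGG, the GC box bound by SP1, CCGGAAG, a core bound by ETS factors, and TGACGTCA, the cAMP response element, each on either strand.
H2AC12 and H2BC12 promoter, chr6:27114635-27114816: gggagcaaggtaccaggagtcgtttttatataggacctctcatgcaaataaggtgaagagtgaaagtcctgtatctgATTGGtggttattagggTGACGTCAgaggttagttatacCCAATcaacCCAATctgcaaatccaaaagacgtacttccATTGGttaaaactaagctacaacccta
PPP1R10 and MRPS18B promoter, chr6:30585108-30585307: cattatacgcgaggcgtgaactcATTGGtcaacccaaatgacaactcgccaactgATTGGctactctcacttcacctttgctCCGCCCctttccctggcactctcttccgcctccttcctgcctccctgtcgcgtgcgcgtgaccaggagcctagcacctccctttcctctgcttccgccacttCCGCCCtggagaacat
HNRNPC promoter, chr14:21737833-21738032: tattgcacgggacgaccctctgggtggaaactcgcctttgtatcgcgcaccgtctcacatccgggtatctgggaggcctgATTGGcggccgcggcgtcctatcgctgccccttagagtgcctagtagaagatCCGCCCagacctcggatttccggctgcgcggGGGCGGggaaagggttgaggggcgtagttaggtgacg
KLF5 promoter, chr13:73632934-73633133: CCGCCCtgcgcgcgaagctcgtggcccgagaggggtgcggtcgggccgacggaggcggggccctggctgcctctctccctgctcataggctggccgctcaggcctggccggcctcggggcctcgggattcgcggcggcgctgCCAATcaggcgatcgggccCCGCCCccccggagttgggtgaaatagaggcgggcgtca
The histone window held CCAAT boxes in both orientations around a cAMP response element between the divergent genes, and the KLF5 and HNRNPC windows held GC boxes and a CCAAT box.

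The libraries with long lists shared most of the regions. Among the 359 regions, HET-1A 2 had a peak in 295 (82.2%) and KYSE-30 6 in 241, whereas HET-1A 1 had one in 32 and KYSE-30 4 in 90. On the KYSE-150 side, 307 had a peak in library 7 and 103 in library 8. A peak in both other lines was present in 206 regions, in HET-1A but not KYSE-30 in 94, and in KYSE-30 but not HET-1A in 59. Without HET-1A 2 there were 268 shared regions, of which 8.58% had a peak in both other lines, and without KYSE-30 6 there were 319, of which 21.6% had one. Without KYSE-150 7, 103 shared regions were left. The regions showed 30 combinations of libraries. The most frequent joined KYSE-150 7 to HET-1A 2 and KYSE-30 6 in 120 regions, of which 110 lay at promoters. It was followed by HET-1A 2 with KYSE-150 7 (56 regions), KYSE-150 7 with KYSE-30 6 (33 regions) and the first trio with KYSE-30 4 added (29 regions, all 29 at promoters).

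**Figure D1:**
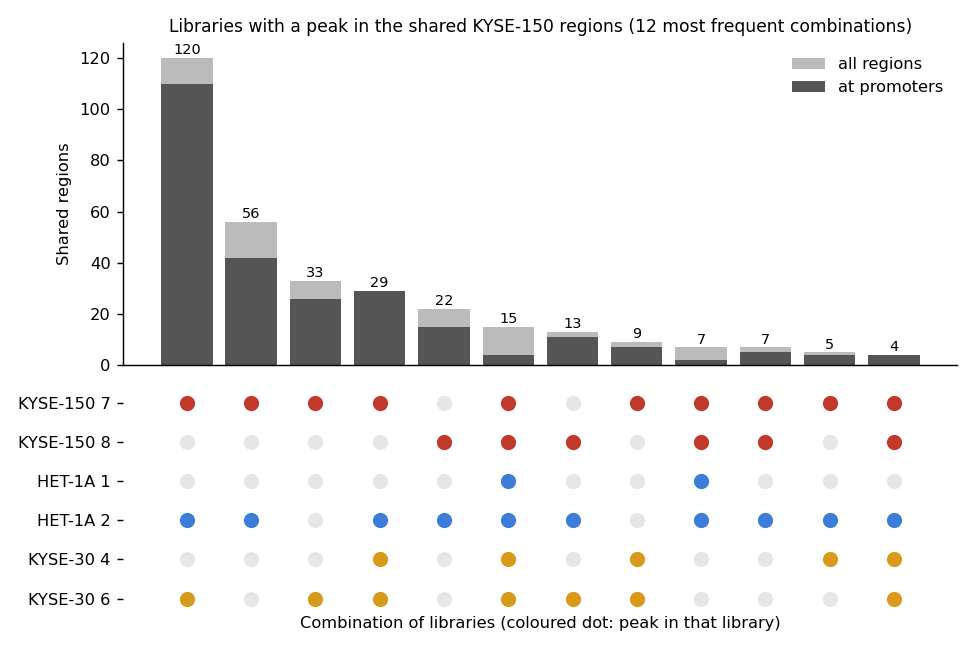
Number of shared KYSE-150 regions (y axis) for the 12 most frequent combinations of libraries, with regions at promoters in dark grey and coloured dots for the libraries that had a peak. The combination of HET-1A 2, KYSE-150 7 and KYSE-30 6 held 120 regions, and the 15 regions with a peak in all 6 libraries held 4 at promoters.

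The reproducible KYSE-150 regions were shared most often. Of 62 regions with a peak in both KYSE-150 libraries, 51 were shared (82.3%, 71.0 to 89.8), against 256 of 484 found in library 7 alone (52.9%, 48.4 to 57.3) and 52 of 195 found in library 8 alone (26.7%, 21.0 to 33.3). KYSE-150 regions at promoters, within 3 kb of an annotated start site, were shared in 281 of 448 cases (62.7%, 58.2 to 67.1), and those away from promoters in 78 of 293 (26.6%, 21.9 to 31.96). KYSE-150 regions whose summit window was mostly repeated sequence (at least 50% of its 32-mers present more than once in hg19) were shared in 44 of 124 cases (35.5%, 27.6 to 44.2), and the remainder in 315 of 617 (51.1%, 47.1 to 54.98).

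Strength within a list went with sharing on both sides. In KYSE-150 7, 78.1% (70.5 to 84.2) of the peaks in the quartile of smallest p-values lay in a shared region, then 58.4%, 43.8% and 44.9% in the following quartiles. In library 8 the shares were 72.3% (60.4 to 81.7), 33.8%, 33.8% and 21.9%. Among HET-1A 2 peaks, 5.07% (4.10 to 6.26) of the strongest 10% and 0.501% (0.254 to 0.985) of the weakest 10% lay in a shared KYSE-150 region. In KYSE-30 6 these shares were 7.02% (5.69 to 8.63) and 0.428% (0.183 to 0.999), and in KYSE-30 4 the strongest 10% reached 30.2% (22.8 to 38.7). The median fold enrichment of the HET-1A 2 peaks inside shared regions was 5.06, compared with 4.21 elsewhere, and of the KYSE-30 6 peaks 6.48, compared with 5.46. Fold enrichment here divides the tags at a summit by the background around it in that library, with the same constant added to both. It therefore ranks peaks within a list. The constant weighs more where the background is low. The lowest background was 1.49 tags per 200 bp in KYSE-30 6 and 3.34 in HET-1A 2.

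**Figure D2:**
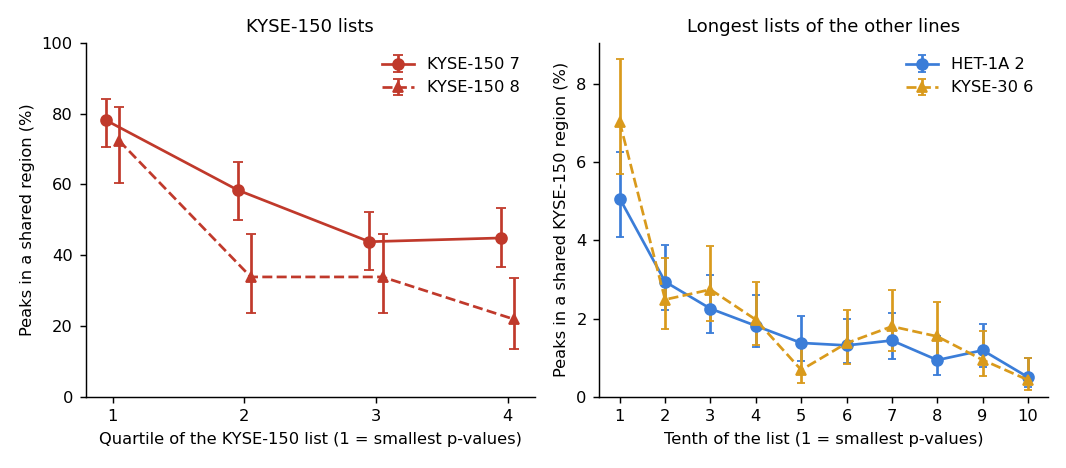
Share of peaks (y axes, with Wilson 95% intervals) that lay in a shared KYSE-150 region, by quartile of the 2 KYSE-150 lists (left) and by steps of 10% of the longest HET-1A and KYSE-30 lists (right), from the smallest p-values on. The share was 78.1% and 72.3% in the first KYSE-150 quartiles and 5.07% and 7.02% in the first 10% of HET-1A 2 and KYSE-30 6.

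The rule needed 1 shared bp, and most members exceeded it by far. The largest overlap of a KYSE-150 peak with a peak of another line had a median of 230 bp and ranged from 10 to 1369 bp, and in 11 of the 359 regions it was under 50 bp. Just inside the rule were the promoters of EPS8 with 10 bp, ZNF428 with 11 bp and ZNF653 with 12 bp. Just outside it were KYSE-150 peaks at the promoters of SPTAN1, CNST and RIOX1, at 16, 22 and 69 bp from a peak of another line.

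The 15 regions with a peak in all 6 libraries included the strongest members. Their median fold enrichment was 12.3 in KYSE-150 7 and 15.1 in library 8, 10.9 and 9.44 in the HET-1A pair (1 and 2), and 11.1 and 10.4 in the KYSE-30 pair (4 and 6). Within a region the highest of the 6 values exceeded the lowest by a median of 1.52 times, with a range of 1.18 to 2.72. KYSE-150 8 gave the highest value in 8 of the 15 regions. Both KYSE-150 values lay above the 4 others in 5 regions and below them in 1, and overlapped them in 9. Because fold enrichment ranks peaks within a list, these orders cannot be read as differences in accessibility between lines. Only 4 of the 15 regions lay at promoters, and the nearest genes were mostly pseudogenes and noncoding RNAs.

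The strongest was the region of RNA5-8SP6, a ribosomal RNA pseudogene, at chrY:10037671-10038003. Its fold enrichment was 37.9 and 34.6 in KYSE-150 libraries 7 and 8, 36.1 and 39.1 in the HET-1A pair (1 and 2), and 38.6 and 30.0 in the KYSE-30 pair (4 and 6), so the lines overlapped. Of the 121 32-mers of the RNA5-8SP6 transcript, 30 (24.8%) were present on the unplaced contig, whereas the 5 other annotated pseudogenes of this RNA had 0. Whether reads of the ribosomal RNA arrays were placed in this window was not tested.

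A region in an intron nearest to RPL13AP15, a ribosomal protein pseudogene (chr6:119558470-119558761), had fold enrichments of 21.1 and 25.0 in KYSE-150, 18.1 and 10.9 in HET-1A, and 19.2 and 12.2 in KYSE-30. Both KYSE-150 values lay above the 4 other values. The region nearest to PARN (chr16:14580794-14581083), the gene of a poly(A)-specific ribonuclease, had 12.3 and 15.2 in KYSE-150, 13.3 and 7.46 in HET-1A, and 9.57 and 11.5 in KYSE-30. It lay in the first intron of an annotated transcript, 14611 bp from the nearest start site.

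The region 27091 bp from MIR607 on chromosome 10 (chr10:98561244-98561621) had 13.4 and 17.9 in KYSE-150, 8.60 and 14.3 in HET-1A, and 12.02 and 9.45 in KYSE-30. An intron of the lncRNA gene ENSG00000258807 on chromosome 14 had 15.5 and 22.96 in KYSE-150, 16.4 and 13.4 in HET-1A, and 12.5 and 14.1 in KYSE-30. The lines overlapped in both. A region in an intron on chromosome 2 nearest to ENSG00000236854 (chr2:33141196-33141684) carried none of the contig's low-copy 32-mers and still had fold enrichments of 15.0 and 16.1 in KYSE-150, 11.9 and 14.5 in HET-1A, and 12.5 and 11.8 in KYSE-30.

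The start of MIR663AHG, a noncoding host gene near the centromere of chromosome 20, held a pair of all-6 regions. At chr20:26189810-26190362 the fold enrichment was 15.1 and 15.1 in KYSE-150, 13.2 and 15.0 in HET-1A, and 17.6 and 15.2 in KYSE-30. The surroundings of these peaks were rich in tags. Relative to the lowest local background of the same library, the background here was 10.9 and 14.2 in KYSE-150, 6.92 and 6.91 in HET-1A, and 6.08 and 3.04 in KYSE-30. The other all-6 regions were 2 at LINC01606 and 1 at REXO1L3P on chromosome 8, 1 nearest to LINC00854 on chromosome 17, 1 nearest to CDC27P1 on chromosome 2 and 1 nearest to RNA5SP488 on chromosome 21, with fold enrichments of 5.33 to 11.6 in KYSE-150 7 and 4.98 to 13.1 in library 8.

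**Figure D3:**
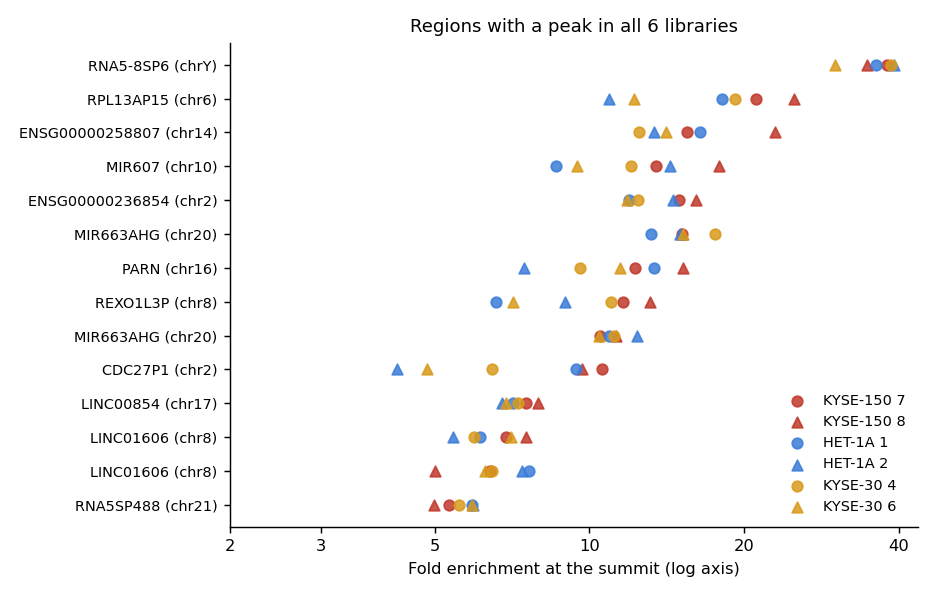
Fold enrichment at the summit (log axis) of 14 of the 15 regions with a peak in all 6 libraries, ordered by the mean of the KYSE-150 libraries, with 1 point per library. RNA5-8SP6 led with 30.0 to 39.1 in the 6 libraries, and the KYSE-150 points overlap those of the other lines in 8 of the 14 rows.

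Sequence of the ribosomal RNA contig was a feature of the reproducible members. Of the 359 shared regions, 21 (5.85%, 3.86 to 8.78) carried at least 1 32-mer that was also on the contig and had no more than 20 copies in hg19, and 20 of these 21 had a peak in both KYSE-150 libraries. Among the 51 members with both KYSE-150 libraries the share was 39.2% (27.0 to 52.9). Among the 382 regions of KYSE-150 alone it was 0, which allows a share of up to 0.785% at 3 counts of the total (the Wilson upper bound is 0.996%), and among the 23231 regions without a KYSE-150 peak it was 2 regions. The 20 regions lay on 10 chromosomes, and their matches began between positions 106236 and 144445 of the contig.

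Of these, 8 regions formed a cluster on chromosome 2 between 133016311 and 133031486, from ANKRD30BL to CDC27P1, a pseudogene of the cell cycle gene CDC27. The region at chr2:133025587-133026009 was shared by all 6 libraries, with fold enrichments of 10.6 and 9.67 in KYSE-150, 9.43 and 4.22 in HET-1A, and 6.46 and 4.84 in KYSE-30. Its relative background was 5.68 and 8.49 in KYSE-150 and 3.601 to 4.65 in the 4 other libraries. CDC27 itself, which encodes a subunit of the anaphase-promoting complex, had a pair of shared regions on chromosome 17 with contig sequence. At chr17:45234204-45234493 the fold enrichment was 8.97 and 8.62 in KYSE-150, 8.41 in HET-1A 1, and 7.13 and 9.24 in KYSE-30, and HET-1A 2 had no peak there although its list was the longest.

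Only 5 of the 51 members with both KYSE-150 libraries (9.80%) had a summit window free of repeated 32-mers, against 241 of the 308 members with 1 KYSE-150 library (78.2%). The 5 were the promoters of KDM4C, a histone demethylase gene, of TUBGCP5, a gene of the gamma-tubulin complex, and of MUC5AC, a gel-forming mucin gene, the promoter of the lncRNA ENSG00000286162 next to RIC1, and a site at IGLC2 in the immunoglobulin lambda locus. At KDM4C (chr9:6757545-6758202) the fold enrichment was 3.05 and 3.25 in KYSE-150, 6.17 in HET-1A 2 and 5.36 in KYSE-30 6. The KYSE-150 background there was 4.21 and 3.71 times the lowest of the library, compared with 1.495 and 1.21 in the HET-1A and KYSE-30 libraries. At ENSG00000286162, also on the short arm of chromosome 9, it was 6.70 and 5.67 in KYSE-150 and 1.00 in KYSE-30 6. At TUBGCP5 on chromosome 15 it was 2.90 and 3.28 in KYSE-150 and 1.00 in both HET-1A 2 and KYSE-30 6. At MUC5AC and IGLC2 the HET-1A 2 value lay between the KYSE-150 values. The part of DNA copy number in these values was not tested.

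Promoters made up most of the shared regions. Of 359, 281 (78.3%, 73.7 to 82.2) lay within 3 kb of an annotated start site, 41 (11.4%, 8.53 to 15.1) were distal intergenic, 12 lay in first introns and 15 in other introns. The promoter share was 43.7% (38.8 to 48.7) in the regions of KYSE-150 alone, 50.1% (49.4 to 50.7) in regions without a KYSE-150 peak, and 69.2% (67.8 to 70.6) in regions shared by HET-1A and KYSE-30 without a KYSE-150 peak. Regions shared with both other lines had 84.0% (78.4 to 88.4), those with HET-1A but not KYSE-30 had 70.2% (60.3 to 78.5) and those with KYSE-30 but not HET-1A had 71.2% (58.6 to 81.2). These intervals cover counting error over regions only, and regions are not replicates of a line.

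**Figure D4:**
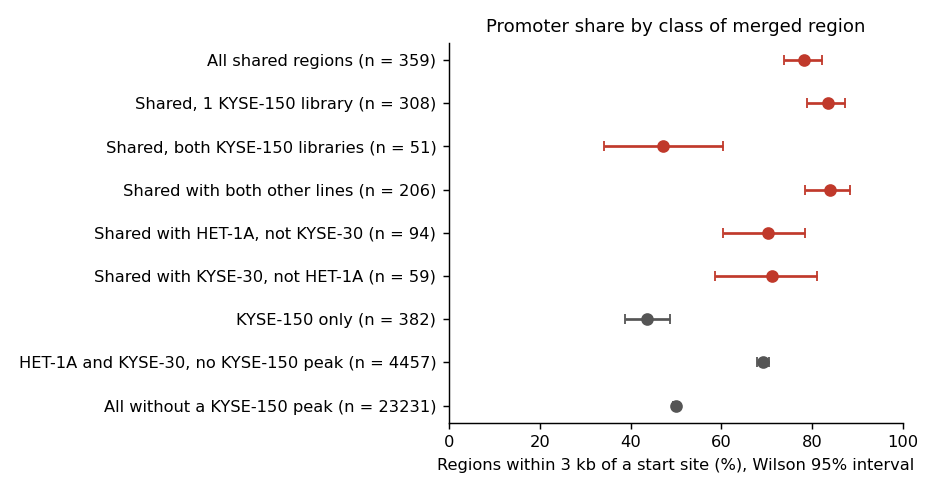
Share of merged regions within 3 kb of a start site (x axis, points with Wilson 95% intervals) by class, shared KYSE-150 regions in red and other classes in grey. Shared regions with 1 KYSE-150 library reached 83.4% and those with both KYSE-150 libraries 47.1%.

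The promoter share differed with the number of KYSE-150 libraries that had a peak: it was 83.4% (78.9 to 87.2) in the 308 members with 1 KYSE-150 library and 47.1% (34.1 to 60.5) in the 51 with both. In the former the summit lay a median of 109.5 bp from the nearest start site, 69.8% lay within 1 kb of the start site of a protein-coding gene, and the window had a median GC content of 64.0% and 16 CpG. In the latter the median distance was 3500 bp, 17.6% lay within 1 kb of a coding start site, and the window had 55.5% GC and 6 CpG. The 1-library members were mostly of library 7, and the libraries differed. The promoter share was 85.9% (81.1 to 89.7) in the 256 members of library 7 alone and 71.2% (57.7 to 81.7) in the 52 of library 8 alone. Of these, 76.6% and 36.5% lay within 1 kb of a coding start site, with a median of 16 and 7 CpG. Reproducibility and library were therefore not separated. The median fold enrichment of the 1-library members was 4.03 in KYSE-150 7 with 20 tags at the summit, and 4.07 in library 8 with 21.5 tags. In the 2-library members it was 5.39 with 39 tags and 5.74 with 46 tags.

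The shared promoters belonged to 311 of the 20162 protein-coding genes (1.54%). Of the 9347 coding genes with any merged region at a promoter (46.4% of all), 3.33% had a shared KYSE-150 region. Regions of KYSE-150 alone lay at the promoters of 0.57% of the coding genes. Over all 64439 annotated genes, 0.77% had a shared region, 0.358% a region of KYSE-150 alone and 23.1% any merged region. Gene lists were read against these shares. At least 1 coding start site was near 233 of the shared regions, and at 73 the start sites of 2 or more coding genes were within 3 kb, as between divergent genes.

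Among the genes of replication-dependent histones, which are expressed in S phase, 6 of 64 (9.38%) had a shared promoter region. The 6 genes were pairs of neighbours counted through the same region within 3 kb, hence 3 regions on chromosome 6. At H2AC12 and H2BC12 (chr6:27114620-27114945) the fold enrichment was 3.99 in KYSE-150 7, 5.06 in HET-1A 2 and 4.67 in KYSE-30 6. At H2AC11 and H2BC11 it was 3.84 in KYSE-150 7 and 8.17 in KYSE-30 6, and at H1-4 and H2BC5 3.03 and 5.27, with no HET-1A peak at either. In the whole list 40 of 64 had a peak in KYSE-30 6 and 20 in HET-1A 2.

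Of 67 genes for translation initiation and elongation factors, 6 (8.96%) had a shared promoter region. EIF5A (chr17:7210404-7210901), an elongation factor gene, had fold enrichments of 5.10 in KYSE-150 7, 7.51 in HET-1A 2, and 4.84 and 4.55 in the KYSE-30 pair (4 and 6). EIF4A1, the gene of an RNA helicase of cap-dependent initiation, had 3.75, 6.31, 5.38 and 4.93 in the same libraries. EEF1A1, which delivers aminoacyl-tRNA to the ribosome, had 4.43 in KYSE-150 7 and 5.83 in KYSE-30 6, and EEF1G and EIF2AK3, which encodes the stress kinase PERK, were shared with both other lines at 4.31 and 3.93 in KYSE-150 7. The EIF2AK3 region was nearest to the start of the neighbouring gene RPIA. The sixth, EIF4E1B, was likewise counted through a region nearest to a neighbour, TSPAN17, in KYSE-150 8, where the fold enrichment was 2.67 and the background was 5.17 times the lowest of the library.

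Other lists of general cell functions had lower counts. Of 59 spliceosome and hnRNP genes, 4 were shared: HNRNPC, HNRNPA2B1, HNRNPH1 and HNRNPAB, which encode proteins that package nascent RNA. All 4 combined KYSE-150 7 (4.35, 4.08, 3.68 and 3.25) with HET-1A 2 (5.50, 5.53, 5.44 and 5.77) and KYSE-30 6 (7.64, 6.88, 6.49 and 8.19). Of 26 chaperone genes HSP90AA1 and HSPH1 were shared, of 39 proteasome genes PSMD3 and PSMA1, and of 77 genes for mitochondrial ribosomal proteins MRPL34, MRPL11 and MRPS18B. Of 86 genes for cytosolic ribosomal proteins, 1 was shared, RPL9, although 65 of the 86 had a merged region at a promoter. The regions of RPL9, MRPL11 and MRPS18B were nearest to the starts of their neighbours LIAS, PELI3 and PPP1R10.

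The lists of squamous identity and of growth control had 0 to 2 shared genes each, shares of 0 to 8.33%. Of 16 squamous lineage transcription factor genes, KLF5 was shared (chr13:73632696-73633232), with 4.36 in KYSE-150 7, 4.37 in HET-1A 2 and 6.89 in KYSE-30 6. Of 24 genes of AP-1 proteins, ATF7 had 5.40 in KYSE-150 7, 3.97 in HET-1A 2 and 7.01 in KYSE-30 6. ATF3, which encodes a stress-induced factor, had 2.76, 4.29 and 6.63 in these libraries and 4.11 in KYSE-30 4. The ATF3 peak of KYSE-150 7 held 56 tags on a background 7.02 times the lowest of the library, and its neighbours PPP2R5A, LINC02771 and TATDN3 on chromosome 1 had backgrounds of 6.70, 7.57 and 5.21 times in the same library. The part of DNA copy number was not tested here either.

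Of 26 listed immediate early genes IER5 was shared, of 35 listed cell cycle genes MCM4, a subunit of the replicative helicase, and of 16 small noncoding RNA genes the vault RNA gene VTRNA1-1. The lists do not hold every gene of their kind. CDC7, CDC25C, SKP2, CKS2 and CDC27 had shared promoter regions but were not in the cell cycle list. ATF3 was not in the immediate early list. None of the 12 genes of the EGF receptor family and its ligands, 55 keratin genes, 11 genes of CTCF and cohesin, 34 listed chromatin modifier genes and 18 tRNA synthetase genes had a shared promoter region. The chromatin modifier list did not hold KDM4C and HDAC4, which code for histone-modifying enzymes and had shared promoter regions. Of these lists, only CTCF and cohesin had a KYSE-150 peak at a promoter, in library 7, and it was not shared. With 547 and 259 peaks in the KYSE-150 lists, a promoter without a peak was not detected at this depth and cannot be called closed.

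The members with the highest KYSE-150 fold enrichment in each sharing group also differed in sequence. With HET-1A but not KYSE-30 these were SNHG27 (8.53 in KYSE-150 8), a site nearest to MTIF3 (7.36), WASH2P (6.77), RNU7-92P (6.72) and ENSG00000291003 (6.33). With KYSE-30 but not HET-1A they were CDC27P2 (10.5 in KYSE-150 7), CICP24 (9.74 in library 8), ENSG00000279918 (7.37 in library 7), an intron of SEMA3E (6.25 in library 7) and GOLGA6D (5.78 in library 8). At least 50% of the 32-mers were repeated at SNHG27, WASH2P, CICP24, ENSG00000279918 and GOLGA6D, and none at SEMA3E, the gene of a secreted semaphorin.

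The AP-1 core was less frequent in the shared regions than in regions without a KYSE-150 peak. TGACTCA, read on both strands in the 200 bp around the summit, was present in 22 of 359 (6.13%, 4.08 to 9.10), against 24.2% (22.996 to 25.5) of the regions shared by HET-1A and KYSE-30 without a KYSE-150 peak and 23.5% (22.9 to 24.0) of all regions without one. The share in the shared regions was 3.88% without KYSE-150 7, 3.92% with a peak required in both KYSE-150 libraries or with lists of equal length, and 10.3% when whole regions were searched. Among the regions of KYSE-150 alone it was 3.66% (2.195 to 6.06). At promoters, 4.63% (2.72 to 7.75) of the shared regions and 13.2% (12.6 to 13.8) of the regions without a KYSE-150 peak held it. Away from promoters 9 of 78 shared regions (11.5%, 6.19 to 20.5) held it. Of the 23231 regions without a KYSE-150 peak, 5453 held it, and 1536 of these were among the 11628 at promoters. The 78 included 20 of mostly repeated sequence, and 0 of the 44 shared regions of that kind held the core. The following stretches show the core, in capitals, in 3 members away from promoters, of which the second is distal intergenic and the others lie in introns.
SEMA3E intron, chr7:83097754-83097834: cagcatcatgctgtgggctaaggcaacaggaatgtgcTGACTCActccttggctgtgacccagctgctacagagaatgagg
ENSG00000254422 region, chr11:102127094-102127174: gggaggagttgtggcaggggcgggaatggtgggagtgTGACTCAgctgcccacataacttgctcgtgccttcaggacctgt
GMDS intron, chr6:1953119-1953199: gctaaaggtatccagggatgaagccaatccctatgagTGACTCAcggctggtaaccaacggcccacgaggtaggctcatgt
The SEMA3E region had a peak in KYSE-150 7 (6.25) and KYSE-30 6 (11.2). The region nearest to ENSG00000254422 was shared by KYSE-150 7 (5.20) and HET-1A 2, and the GMDS region by KYSE-150 7 (4.62), HET-1A 2 and KYSE-30 6.

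The GC and CCAAT boxes had overlapping intervals in the shared regions and in the regions shared by the other lines, and were more frequent there than in the regions of KYSE-150 alone or in all regions without a KYSE-150 peak, by intervals that did not overlap. The GC box GGGCGG was present in 45.4% (40.3 to 50.6) of the shared regions, 41.7% (40.3 to 43.2) of the HET-1A and KYSE-30 regions without a KYSE-150 peak and 17.0% (13.6 to 21.1) of the regions of KYSE-150 alone. Over all regions without a KYSE-150 peak the GC box was present in 25.6% (24.995 to 26.1) and the CCAAT box in 26.6% (25.9996 to 27.1). In the shared regions the GC box was present in 51.3% (45.7 to 56.8) of those with 1 KYSE-150 library and 9.80% (4.26 to 21.0) of those with both. It was present in 55.5% (49.3 to 61.4) of those of library 7 alone and 30.8% (19.9 to 44.3) of those of library 8 alone. The CCAAT box was present in 33.4% (28.7 to 38.5) of the shared regions and 36.8% (35.4 to 38.2) of the HET-1A and KYSE-30 regions without a KYSE-150 peak. In the regions of KYSE-150 alone it was present in 19.4% (15.7 to 23.6). The core motif of NRF1, an activator of genes for mitochondrial function, was present in 7 shared regions (1.95%, 0.948 to 3.97), 1.01% (0.755 to 1.35) of the HET-1A and KYSE-30 regions and 0 of the 382 regions of KYSE-150 alone. The core of the CTCF motif was present in 9.19% (6.62 to 12.6), 8.26% (7.48 to 9.10) and 7.07% (4.90 to 10.1), intervals that overlap.

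**Figure D5:**
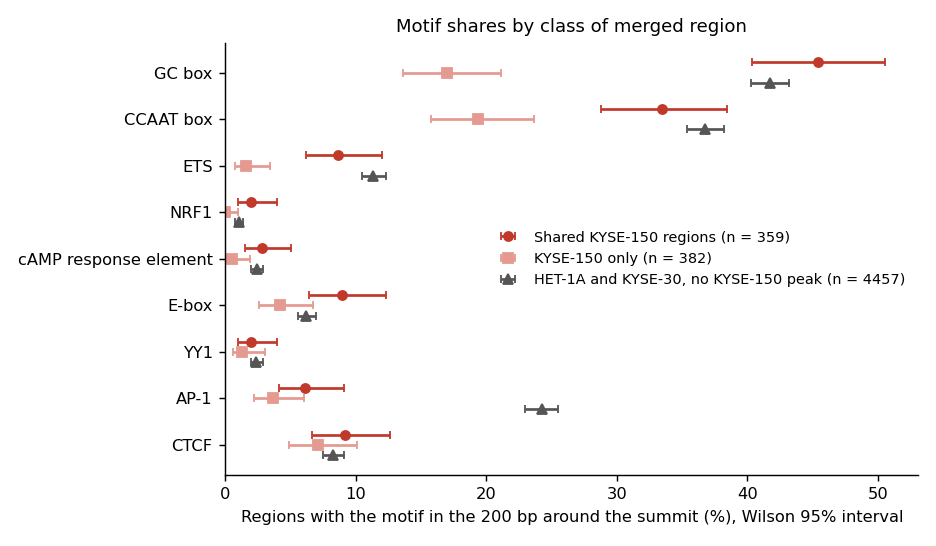
Share of regions whose 200 bp around the summit hold a motif (x axis, points with Wilson 95% intervals) in shared KYSE-150 regions, regions of KYSE-150 alone and regions of HET-1A and KYSE-30 without a KYSE-150 peak. AP-1 stood at 6.13% in the shared regions and 24.2% in the HET-1A and KYSE-30 regions, while the GC box stood at 45.4% and 41.7%.

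Across chromosomes the shared regions were most numerous on chromosome 1, with 41 of its 2372 merged regions, against 359 of 23972 over all. They were densest on chromosome 17 with 0.382 per Mb (31 of 1237 merged regions) and chromosome 20 with 0.349 per Mb (22 of 747). As a share of merged regions, chromosomes Y (3 of 14) and 21 (10 of 252) stood higher than these. A peak on a background at least 4 times the lowest of its library was present in 31 of the 359 regions, among them 10 of the 21 with contig sequence. Over all merged regions the count was 1220 of 23972. It was 127 of 4457 in regions shared by HET-1A and KYSE-30 without a KYSE-150 peak, and 11 of 382 in regions of KYSE-150 alone. By library, 20 of 307 member regions were raised in this way in KYSE-150 7 and 18 of 103 in library 8, and in the other lines 6 of 32 in HET-1A 1, 8 of 295 in HET-1A 2, 13 of 90 in KYSE-30 4 and 6 of 241 in KYSE-30 6.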

How the data were processed

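The study's methods state that trimmed, duplicate-marked reads were mapped to hg19 with Bowtie2 (2.3.3.1 per the submitters' processing notes), filtered against blacklisted regions and shifted for Tn5, and that MACS2 called peaks on fragments under 100 bp, separately in each library (q-value 0.05). The deposited lists give each peak's score, fold (a ratio of tags to local background, with a constant added to both), −log10 p-value and −log10 q-value, all by the authors. Read counts were not analysed here.

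Peaks were merged by 1 shared bp. Tags and local background were recovered from fold and p-value (tolerance 0.001 in −log10 p) for 100% of the peaks. Genes came from GENCODE 44 on hg19, with priority to promoters (3 kb each side), then UTR, exon, intron, downstream (3 kb) and intergenic. A first intron is that of any annotated transcript, not only of the main transcript of a gene. Copies of 32-mers were counted in hg19. Merging, recovery and counting were tested on simulated data. The shares have Wilson 95% intervals. No test between lines was run: with 2 libraries a line, exact permutation gives no p below 0.333. Members, gene lists and motifs were chosen with earlier results of these data known. Named were all-6 regions, the strongest regions of each sharing group, gene-list members and those at the edge of the rule; other named regions were chosen after their values were seen. Python 3.11.15, NumPy 2.4.6, pandas 2.3.3, SciPy 1.17.1 and numba 0.67.0 were used. Of the all-6 regions, 1 is not reported here.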

Additional observations from a re-analysis of the deposited data

How the results depend on the processing

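Of the 359 regions, 348 remained in number at q under 0.01, 291 at q under 0.001, 263 with 50% reciprocal overlap and 334 without peaks of raised background. With 168 peaks taken from each library there were 51, and with a peak required in both KYSE-150 libraries also 51. With 168 peaks each the promoter share was 47.1%, the AP-1 share 3.92%, the share of KYSE-150 regions that were shared 17.6% and the share found in both other lines 41.2%. With both KYSE-150 libraries required, the first 3 of these were 47.1%, 3.92% and 82.3%. The promoter share was 72.7% with 1 kb and 64.9% with coding start sites only, and the AP-1 share was 10.3% over whole regions. The shared part of KYSE-150 regions was 52.5% at q under 0.001 and 35.5% with 50% reciprocal overlap, where 38.8% were found in both other lines. Leaving out 1 library at a time gave 103 to 358 regions, promoter shares of 59.2% to 79.9%, AP-1 shares of 3.88% to 6.29%, shared parts of 36.1% to 56.3% and shares in both other lines of 8.58% to 59.7%. Without KYSE-30 replicate 6 the last share was 21.6%. The lowest count, promoter share and AP-1 share came without KYSE-150 replicate 7, and the lowest shared part (36.1%) and share in both other lines came without HET-1A replicate 2. The cause of these shifts was not tested. Leaving out repeated regions (315) or those with contig sequence (338), and calling promoters from the summit window, were added after seeing the data and kept each value within its interval. No paired analysis was possible because the replicate numbers are not shared between lines. Depth limits the KYSE-150 lists, whose 547 and 259 peaks cannot show which other regions are closed.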
